A study of Mus musculus with 2 samples.

Results

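Long noncoding RNAs are transcripts with no annotated protein product that are made, capped and often spliced like messenger RNAs. Some stay in the nucleus, some carry small RNAs in their introns, and many start beside or run across protein-coding genes. Erythroblasts still have a nucleus, which red blood cells lack, and their messenger RNA is dominated by globins. The genes described here were chosen by their measured counts: genes of an autosome whose GENCODE M21 biotype is lincRNA, antisense, processed transcript, sense intronic, sense overlapping or bidirectional promoter long noncoding RNA, with a mean of at least 100 expected counts over both libraries. That rule kept 143 of 4964 autosomal genes of these biotypes, and of 43346 Ensembl genes in all. Of the genes left out, 3831 were listed at 0 in both libraries and 990 had counts with a mean under 100.

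Primary erythroblasts came from C57BL/6J mice, all male and aged between 5 and 6 weeks. They formed 1 group of 2 biological replicates, with no treatment, genotype or other group to compare. Each replicate had its own biosample record but the donor record was shared, so the spread between them may be technical. Total RNA depleted of ribosomal RNA was made into a ScriptSeq library from 100 ng of RNA, with a listed size range of 200 to 764 for replicate 1 and 138 to 1000 for replicate 2. The libraries held 37312621 and 22464713 expected counts over Ensembl genes. All 10 erythroid markers checked stood above 1 in both libraries on the scale used below, with summed levels of 96049 and 95724. The 8 neutrophil markers also did, with summed levels of 20138 and 19681, and the part of neutrophil RNA in the levels below was not tested. In bulk RNA, fewer cells of a type and less RNA per cell cannot be told apart. Of the other lists, 6 monocyte and macrophage markers summed to 207 and 189. The 5 megakaryocyte markers summed to 98.0 and 116, mostly Itga2b at 77.6 and 105. Pf4 stood at 13.3 and 4.21, Ppbp at 1.78 and 0.145, Gp9 at 5.33 and 5.66, and Gp1ba at 0 and 0.435. The 4 B cell markers summed to 8.62 and 3.77. The 4 T and NK cell markers summed to 25.5 and 17.4, nearly all of it Nkg7 at 24.4 and 16.1, with Cd3d listed at 0. The 4 stroma and endothelium markers summed to 13.7 and 12.8, mostly Cxcl12 and Pecam1, with Cdh5 listed at 0.

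Levels are given as coding-scaled TPM: the deposited TPM, which is a count per base of effective length expressed as a share, divided by the library's total over nuclear protein-coding genes and multiplied by 1000000. Differences between the libraries are log2 ratios of replicate 2 over replicate 1 of the expected counts after TMM scaling. Each ratio has an exact 95% interval that covers counting error only. With 1 library on each side, nothing was tested between them.

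The members were 47 lincRNAs, 43 processed transcripts, 37 antisense genes, 9 sense intronic genes, 6 bidirectional promoter genes and 1 sense overlapping gene. RefSeq, matched by symbol, or by a synonym whose gene overlaps the member, had an entry for 104 of them. It classed 94 as long noncoding RNA, 7 as protein-coding (1810058I24Rik, Cct6a, Tmem134, Ifi30, Gm12940, Tmem250-ps and Zswim6), 2 as pseudogenes (Gm42418 and Gm10076) and Gm12238 as a small nucleolar RNA.

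Sequence matters most for 3 kinds of member. The first is the microRNA hosts, whose introns or exons contain the hairpins of known blood cell microRNAs. The mature arms below are from RefSeq (GRCm38.p6), with the seed, bases 2 to 8, in capitals, and are grouped by shared seed within each host. Dleu2 (chromosome 14, from 61602839 to 61682373, minus strand) contains the genes of both arms that share the seed AGCAGCA.
miR-15a-5p: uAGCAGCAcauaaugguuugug
miR-16-5p: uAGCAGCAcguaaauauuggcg
Mir17hg (chromosome 14, from 115042879 to 115046727, plus strand) contains 6 hairpins in 4 seed groups.
miR-17-5p: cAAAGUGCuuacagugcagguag
miR-20a-5p: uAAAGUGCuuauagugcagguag
miR-18a-5p: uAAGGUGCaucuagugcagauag
miR-19a-3p: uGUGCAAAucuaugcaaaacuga
miR-19b-3p: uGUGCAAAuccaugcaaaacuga
miR-92a-3p: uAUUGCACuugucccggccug
The lincRNA 6720427I07Rik contains 3 hairpins of the let-7 family with 1 seed.
let-7a-5p: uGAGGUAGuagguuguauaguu
let-7d-5p: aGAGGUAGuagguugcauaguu
let-7f-5p: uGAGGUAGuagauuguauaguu
Mir22hg (chromosome 11, from 75461539 to 75466676, plus strand) contains Mir22.
miR-22-3p: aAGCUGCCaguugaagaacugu

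The second kind is Gm12238 (chromosome 11, from 55482706 to 55482829, plus strand), annotated as a sense intronic gene of 124 bases within G3bp1. It is printed because its whole sequence lies inside the 140 bases of the small nucleolar RNA gene Gm22884, at positions 13 to 136. The run is the M21 transcript of Gm22884, with the part that is also Gm12238 in capitals.
Gm22884: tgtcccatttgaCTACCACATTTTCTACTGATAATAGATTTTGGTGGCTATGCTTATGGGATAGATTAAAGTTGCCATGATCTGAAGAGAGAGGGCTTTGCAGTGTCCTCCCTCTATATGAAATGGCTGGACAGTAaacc

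The third kind is members that start beside a protein-coding gene on the other strand. Windows of 300 bases are shown for B230354K17Rik beside Cdc5l (chr17:45433581-45433880, GRCm38.p6, plus strand) and 4632427E13Rik beside Rab30 (chr7:92741410-92741709, GRCm38.p6, minus strand). Both are read along the strand of the long noncoding RNA, and capitals mark the stretch from the annotated start of 1 gene to that of the other, 140 and 136 bases long. The first stretch lies in both genes, which overlap by 140 bases. The second spans the gap between genes that do not overlap.
B230354K17Rik: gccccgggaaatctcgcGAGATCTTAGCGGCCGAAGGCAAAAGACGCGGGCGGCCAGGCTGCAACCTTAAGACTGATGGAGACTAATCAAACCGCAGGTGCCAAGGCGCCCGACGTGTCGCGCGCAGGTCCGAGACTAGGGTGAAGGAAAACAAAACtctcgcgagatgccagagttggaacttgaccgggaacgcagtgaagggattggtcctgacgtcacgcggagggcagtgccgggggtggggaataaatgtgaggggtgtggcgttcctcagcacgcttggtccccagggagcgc
4632427E13Rik: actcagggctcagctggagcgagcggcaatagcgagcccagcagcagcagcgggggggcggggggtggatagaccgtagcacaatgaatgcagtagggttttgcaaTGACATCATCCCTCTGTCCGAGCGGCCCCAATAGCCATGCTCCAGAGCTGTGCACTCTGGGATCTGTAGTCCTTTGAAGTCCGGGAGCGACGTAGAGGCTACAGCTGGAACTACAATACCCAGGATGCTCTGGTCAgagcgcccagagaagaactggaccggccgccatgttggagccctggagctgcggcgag
These windows held 27 and 16 CG steps. Over the 97 RefSeq windows found for members the median was 16 CG steps, against 7 over all 32851 windows. Here and for the letters below, the full set was not limited by counts as the members were. Some member windows belong to genes that RefSeq calls protein-coding, such as Cct6a and Zswim6. The window of Mir17hg, from 115044140 to 115044439, lies inside the gene and not at its M21 start. The letters GATAA, which GATA factors such as Gata1 bind, were found on either strand in the windows of 16 of 83 matched members, or 19.3%, and of 28.4% of 27025 genes of any kind. The letters CCNCNCCC, which Klf1 and related factors bind, were found in 57.8% of the members and 51.9% of all genes. These matches are a description of letters only.

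The 143 members held 6.58% of the counts of replicate 1 (exact interval 6.57 to 6.59%) and 7.17% of those of replicate 2 (7.16 to 7.18%). Counting every autosomal long noncoding RNA gene, the members' share was 99.3% ± 0.101 (SD, n = 2), a share that the count limit itself favours. Counts were concentrated in few genes: the 5 members with most counts held 93.8% ± 0.260 of the member total (SD, n = 2). Of the 143, 8 had a mean of at least 10000 counts, 17 had 1000 to 10000, and 118 had fewer than 1000. On the level scale, 142 of 143, or 99.3%, reached 1 in both libraries, with Gm37724 at 0.870 in replicate 2 as the exception. The same was so for 99.4% of all genes at the count limit. The median member stood at 14.6 in replicate 1 and 20.0 in replicate 2, or 17.3 ± 3.85 (SD, n = 2). Protein-coding genes that reached the same count limit had medians of 18.6 in both. Per member, 19 had a mean level of at least 100, 76 lay between 10 and 100, and 48 were under 10.

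**Figure D1:**
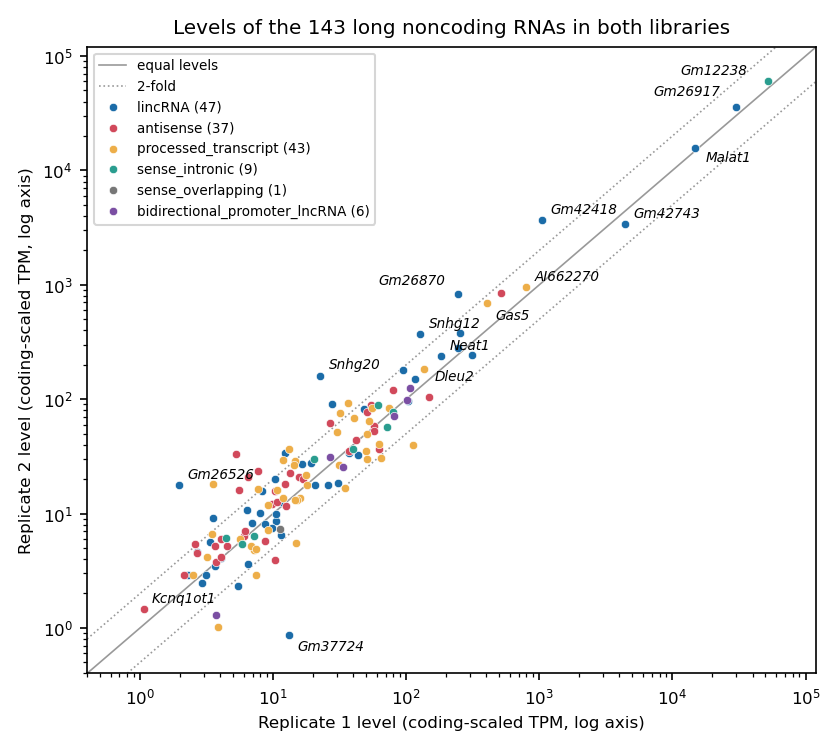
Level of each of the 143 members in replicate 1 (x axis) and replicate 2 (y axis), both in coding-scaled TPM on log axes, coloured by biotype; the solid line marks equal levels and the dotted lines a 2-fold difference. By mean, levels ran from Kcnq1ot1 at 1.07 and 1.45 to 52318 and 60040 for Gm12238, and most points lie between the dotted lines.

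Ribosomal RNA lies next to the member with most counts. Gm26917 (ENSMUSG00000097971, chromosome 17 from 39843013 to 39846341, mm10) is a lincRNA whose leading transcript has 1 exon. It had 1442101 counts in replicate 1 and 887574 in replicate 2, and levels of 30216 and 36052. It ends 12 bases before Rn18s-rs5, a RefSeq pseudogene of the 18S ribosomal RNA. Gm42418 (39846958 to 39848788) has 68.0% of its length inside that pseudogene, and RefSeq lists it as the pseudogene itself. All of Gm42418, and none of Gm26917, lies inside a ribosomal RNA gene of M21. Gm42418 had 26206 and 47720 counts and levels of 1050 and 3667. The first gene was nearly level between the libraries, with a log2 ratio of 0.19 (interval 0.19 to 0.20), and the second was 3.38-fold higher in replicate 2, at 1.76 (1.74 to 1.78). Together they held 3.94% and 4.16% of the 2 libraries. Without them the other 141 members held 2.64% and 3.003%. Of all long noncoding RNA counts, a total that still includes both genes, these 141 members held 40.8%. How far reads of the ribosomal RNA repeats enter either gene was not tested. No member was marked as sharing reads with other genes, taken as a posterior SD of the count over 3 times its square root, and 121 had a posterior SD of 0 in both libraries.

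The list named nuclear and architectural came next, and where its RNAs lie in the cell was not measured. Malat1, a nuclear RNA of splicing speckles (chromosome 19, 5795690 to 5802672, minus strand), had 751681 and 517044 counts and levels of 14803 and 15742, or 15273 ± 664 (SD, n = 2). Neat1, the scaffold of paraspeckles and the neighbour of Malat1, had 57438 and 37256 counts and levels of 184 and 236. Its level lay far below that of Malat1, as it had fewer counts, and on a longer leading transcript of 20771 bases. Gene 1700020I14Rik, which RefSeq calls Oip5os1 and which is also known as Cyrano, had 29100 and 16833 counts and levels of 244 and 283. Tug1 stood at 41.8 and 43.7, and 2900097C17Rik, the Norad RNA that binds Pumilio proteins, at 25.8 and 17.7. Kcnq1ot1, an imprinted antisense RNA that silences neighbouring genes, had 1386 and 906 counts over 84395 bases and so the lowest mean level of all members, 1.26 ± 0.272 (SD, n = 2). Its sense partner Kcnq1 was listed at 0 in both libraries. Of this list of 11 genes, 6 were members and 4 were measured under the count limit: Pvt1 had 4 and 13 counts, Meg3 0 and 1, and Miat and Hotair were listed at 0. Kcnq1ot1 was also the 1 member of 10 imprinted genes listed, of which 8 were under the limit, H19, Rian and Mirg at 0 in both libraries.

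Several less familiar genes stood at the level of abundant messenger RNAs. AI662270, a gene listed here for its expression in blood cells, had 14001 and 8988 counts and levels of 798 and 951, above 99.0% of detected protein-coding genes. F930017D23Rik had levels of 255 and 382. Gm27177, antisense to Loxl2 over 74219 bases, had 17544 and 15364 counts and levels of 515 and 840, while Loxl2 had 37.6 and 32.5 counts. Gm27177 also crosses Entpd4b on the other strand over 3357 bases, and Entpd4b had 86.1 and 32.7 counts. Relative to the square root of its count, the posterior SD of Gm27177, 380 in replicate 1, was the closest of all members to the mark for shared reads. Lockd, an RNA made downstream of the cell cycle inhibitor gene Cdkn1b, had 450 and 341 counts and levels of 117 and 150. It was chosen after its values were seen. Ttc39aos1, also of the blood cell list, had 269 and 156 counts and levels of 62.1 and 36.7. Its log2 ratio of scaled counts was 0.11, so its lower level in replicate 2 was not seen in the counts. That list of 15 had 3 members, with Dleu2 as the third, and 9 genes under the limit. Gm15915 of those had 101 and 40 counts, Lncpint 6 and 0, and Hotairm1 was listed at 0.

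Gm42743 is a member whose counts lay mostly on a transcript that the later annotation calls coding. It had 15372 and 8339 counts and levels of 4404 and 3401, the fourth highest. A transcript of 381 bases, ENSMUST00000177113, held 96.7% and 92.3% of its TPM in the deposited values. M21 places that transcript in Hist2h2bb, a histone H2B gene that is protein-coding and had no entry of its own in the tables. The other transcript, of 1511 bases and still long noncoding in M21, held 2961 and 2743 counts. Gm42743 lies in the histone cluster of chromosome 3 with 4 other members, Gm20634, Gm20633, Gm20632 and Gm20628, which overlap replication-dependent histone genes. Gm20634 was the other member with counts on a transcript that M21 gives to another gene, a 1825-base transcript of Hist2h3c1 with 0.00% of its TPM in replicate 1 and 55.1% in replicate 2. Gm20628 had 297 and 497 counts, a log2 ratio of 1.64, and Gm20632 had 188 and 284, at 1.49, both higher in replicate 2. Hist2h2aa2, which Gm20632 crosses and which was marked as sharing reads, had a ratio of 1.16, and Hist2h2aa1, which Gm20633 crosses, one of -1.06 with Gm20633 itself at 0.51. The counts of Hist2h2aa1 and Hist2h2aa2 had nearly the same posterior SD, 316 and 317 in replicate 1, and summed to 32981 and 16083, a ratio of -0.14. All 5 members of the cluster had ratios above 0, from 0.01 for Gm42743 to 1.64 for Gm20628. Ratios above 0 were found for 61.5% of all members and 48.6% of all genes with a mean of at least 100 counts.

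Gene Gas5 led the hosts of small nucleolar RNAs, the guides that direct chemical modification of ribosomal RNA and that are cut from introns of their hosts. Gas5 (chromosome 1, 161034422 to 161038539) had 4554 and 3764 counts and levels of 405 and 692. Snhg12 had 712 and 1123 counts and levels of 128 and 372, with a log2 ratio of 1.55 (1.41 to 1.69). Snhg5 moved the other way, with 774 and 199 counts and a ratio of -1.07 (-1.30 to -0.84). Zfas1 had 638 and 443 counts and Snhg17 had 426 and 252. Among the members of this list the widest difference was that of Snhg20, which contains a small Cajal body RNA gene, at 99.9 and 395 counts and a ratio of 2.88 (2.56 to 3.21). Of the 19 hosts listed, these 6 were members and 8 were measured under the limit, among them Snhg3 with 77.5 and 14.97 counts and Snhg6 with 19 and 80, a ratio of 2.97. By position, 10 members contained 32 annotated small nucleolar RNA genes on their own strand. These were Gas5, Cct6a, Snhg12, Zfas1, Snhg5, Snhg17, 9330159M07Rik, 1110038B12Rik, AA465934 and 2410006H16Rik. Their median level was 51.8 in replicate 1 and 52.2 in replicate 2.

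The small RNAs inside these hosts were measured by length. Of 31 small nucleolar and Cajal body RNA genes with an entry in the tables, 22 were at most 100 bases long, and 19 of those were listed at 0 in both libraries. The exceptions were Snord47 and Gm22357 in Gas5, with 25 and 130 and 7.91 and 56.6 counts, and Snord7 in AA465934 with 3 and 0. All 9 genes over 100 bases had counts in both libraries, and all 9 were higher in replicate 2 after scaling, by log2 ratios of 1.17 to 5.15. In Cct6a, which RefSeq classes as the protein-coding gene of a chaperonin subunit, Gm23245 had 2226 and 16185 counts and Snora15 had 26 and 497, while the host had 1128 and 728. In Snhg12, Snora44 had 832 and 2055 counts and Snora61 had 976 and 1442. The Cajal body RNA Gm26083 in Snhg20 had 894 and 1080. The host ratio was 0.26 for Cct6a, below those of its small RNAs at 3.76 and 5.15. Snhg17, at 0.14, also lay below its small RNAs, at 1.26, 3.60 and 4.46. Snhg12, at 1.55, lay above Snora61 at 1.46 and below Snora44 at 2.20 and Snora16a at 2.58. Snhg20, at 2.88, lay above Gm26083 at 1.17. The listed size range reached down to 200 in replicate 1 and 138 in replicate 2, and its part in these differences was not tested. The tables also gave short genes an effective length near 0, and a value of 0 there cannot be read as absence.

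**Figure D2:**
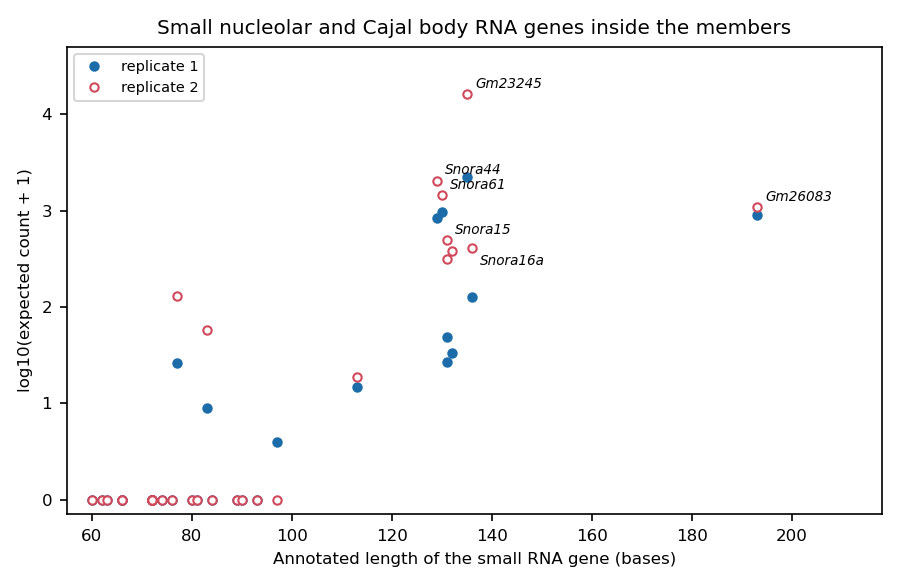
Counts of 31 small nucleolar and Cajal body RNA genes that lie inside members, as log10(expected count + 1), against their annotated length in bases; filled points are replicate 1 and open points replicate 2. Of the 22 genes of at most 100 bases, 19 sit at 0 in both libraries, and each of the 9 longer genes has counts in both.

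Gm12238, printed above inside Gm22884, showed the same limit from the other side. It had 1709 and 4538 counts, which is a ratio of 2.30 (2.22 to 2.38), yet its levels of 52318 and 60040 made it the highest of all members. The table gave it an effective length of 2.15 bases in replicate 1 and 9.75 in replicate 2. Because level is count per effective length, the 4.93-fold difference in scaled counts came to nearly equal levels, and the rank of Gm12238 rests on those lengths. Its host G3bp1 had 1983 and 1114 counts and a log2 ratio of 0.06.

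The microRNA hosts were measured as long transcripts, and the microRNA genes with an entry were listed at 0. Dleu2, host of the miR-15a and miR-16 hairpins, had 5660 and 3257 counts and levels of 136 and 185, with a log2 ratio of 0.10 (0.03 to 0.16). Mir22hg had 655 and 479 counts and levels of 30.1 and 51.8. Mir17hg, host of the miR-17 to miR-92a cluster, had 183 and 241 counts, levels of 3.55 and 9.14, and a ratio of 1.29 (1.01 to 1.58). The let-7 host 6720427I07Rik had 335 and 164 counts and levels of 10.5 and 9.86. By level the order was Dleu2, Mir22hg, 6720427I07Rik and Mir17hg, and no neighbours in that order overlapped, though the last came close in replicate 2. In all 8 members contained 16 annotated microRNA genes on their own strand. Of 12 named hosts listed, 3 were members and 6 were under the limit, Mir142hg with 0 and 8 counts and Mir155hg with 0 and 11. How much mature microRNA was present was not measured by these libraries.

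Position relative to protein-coding genes entered the choice in part, since antisense, sense intronic, sense overlapping and bidirectional promoter genes, 53 of the members, are defined by it. Of the 143, 61 overlapped a protein-coding gene on the other strand, 22 did so on their own strand, 3 of these on both, and 63 overlapped none. Overlap on the other strand was found for 42.7% of the members and 49.3% of all 4964 genes of these biotypes, and overlap on their own strand for 15.4% and 7.15%. The start of 48 members lay within 1 kb of the start of a protein-coding gene on the other strand, a head-to-head arrangement, with a median distance of 197 bases for the 47 whose neighbour was in the tables. In 24 of those 47 pairs the long noncoding RNA had the higher mean level, and in 23 the protein-coding gene had. The count limit was set on the long noncoding RNA alone, which favours it in this split. Of the 47 neighbours, 40 reached the same limit, and 26 did not overlap the member. The median levels were 15.3 for the members and 25.8 for the neighbours. A head-to-head start was found for 33.6% of the members and 19.5% of all 4964 genes. For lincRNAs and processed transcripts alone, which position does not define, it was 26.7% of 90 members and 15.7% of 2692 genes. These shares are descriptions with no test. The first pairs are those of the members with most counts, and of Zfas1. That choice favours the long noncoding RNA, which had the higher mean in each. B230354K17Rik had 7571 and 4635 counts and levels of 106 and 126, and its neighbour Cdc5l, a splicing factor gene whose start lies 139 bases away, stood at 70.8 and 59.9. 4632427E13Rik had levels of 81.2 and 71.8 against 27.8 and 41.6 for Rab30, a small GTPase gene. Gas5 had 405 and 692 against 2.67 and 1.89 for Zbtb37, the widest ratio in favour of the long noncoding RNA among pairs whose neighbour had counts. Tug1 had 41.8 and 43.7 against 8.44 and 15.2 for Morc2a, and Zfas1 had 40.5 and 68.6 against 43.0 and 45.0 for Znfx1. In the case of Zfas1 the ranges overlapped. 5031425E22Rik had 48.3 and 81.4 against 32.6 and 41.0 for Kmt2e, a chromatin regulator gene. D330041H03Rik, with 50.9 and 50.04, lay 23 bases from the start of Rnps1, with 41.9 and 32.5. Cct6a had 52.7 and 65.0 against 4.27 and 5.08 for Psph. Brip1os stood at 15.7 and 21.03 against 10.3 and 7.11 for Brip1. The coding gene was higher by mean in 23 pairs, of which 3 are given that were chosen after their values were seen. 2810013P06Rik had 33.4 and 25.7 against 64.2 and 97.8 for Ankrd11, a chromatin regulator gene. E230016M11Rik had 11.9 and 13.6 against 724 and 676 for Gadd45a, a stress response gene. B230317F23Rik had 6.49 and 3.63 against 1425 and 1562 for Clcn3, a chloride transporter gene.

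**Figure D3:**
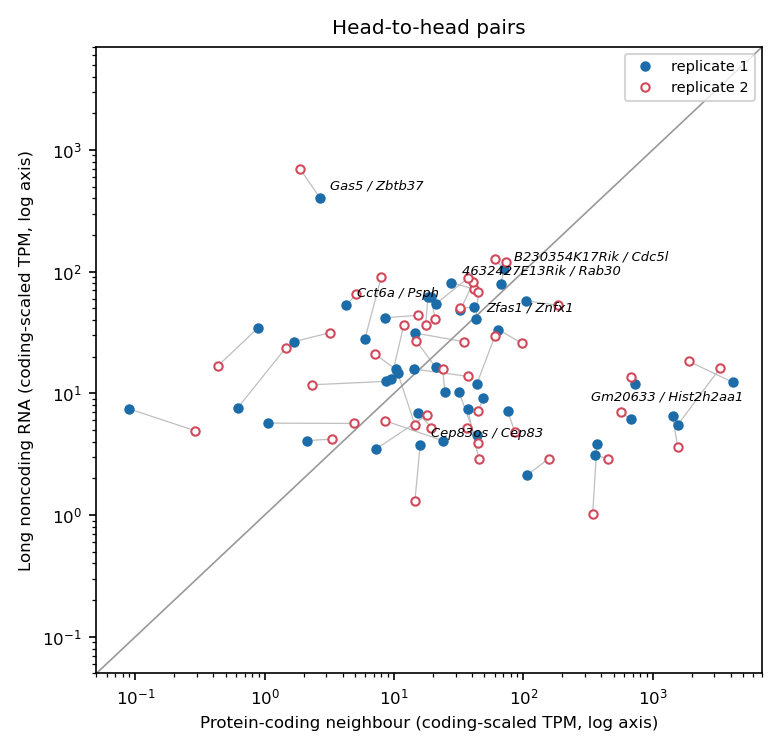
Level of 47 members (y axis) against the protein-coding gene that starts within 1 kb on the other strand (x axis), in coding-scaled TPM on log axes; filled points are replicate 1, open points replicate 2, a grey line joins the libraries of a pair, and the diagonal marks equal levels. The long noncoding RNA, on which alone the count limit was set, lies above the diagonal by its mean in 24 pairs and below in 23.

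Overlap on the other strand was seen at all levels. Of the 61 such members, 31 stood above the coding gene they crossed and 30 below it, taking the partner with most counts. Here too the count limit was set on the members alone, and 50 of the 61 partners reached it. Gm10603 had 3560 and 1863 counts against 1112 and 618 for C2cd3. Gm16793 had 2171 and 1118 counts against 4768 and 2630 for Mfhas1. The log2 ratios were -0.04 for Gm10603 and 0.05 for C2cd3, and -0.06 for Gm16793 and 0.03 for Mfhas1. Gm26870 (chromosome 9, 3000282 to 3038313) crossed 9 protein-coding genes of a repeated family and had 3605 and 6580 counts, which is a ratio of 1.76 (1.70 to 1.82). Of that family 8 genes were higher in replicate 2, at ratios from 0.67 for Gm10722 to 4.55 for Gm17535, which had 3.60 and 45.3 counts. Gm10719, with most counts, had 536 and 576, at 1.00. Gm10715 alone was lower, with 160 and 56 counts, at -0.61. Whether the counting used strand is not given in the sources used here, so reads of such partners may not have been told apart.

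The 9 sense intronic members lie in introns of coding genes on the same strand, and their ratios can be set beside those of the hosts. Gm37864 in Dcaf6 had 3489 and 1759 counts and a log2 ratio of -0.09, and Dcaf6 had -0.06. Gm38115 in Tmem131 had 2419 and 1006 counts, at -0.37, with Tmem131 at -0.28. Gm28941 in Mff was at -0.13 and Mff at -0.14, Gm20682 at -0.18 and Foxn3 at -0.06, and Gm17491 at -0.23 and Slc20a2 at -0.41. In the remaining 4 the member's ratio lay further above that of the host: Gm37529 at 0.37 against -0.07 for Rabgap1l, Gm17193 at 0.56 against -0.16 for Arel1, Gm3513 at 0.60 against -0.09 for Fnip2, and Gm12238 as given above. Members of this type were added to the named ones after their values were seen. The levels of Gm37864, 79.5 and 77.6, stood below those of Dcaf6, 445 and 507. Unspliced RNA of the host and a transcript of the intronic gene cannot be told apart in these counts.

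Between the libraries, 20 members were at least 2-fold higher in replicate 2, or 14.0%, where 4.85% of all 8203 genes with a mean of at least 100 counts were. At least 2-fold higher in replicate 1 were 8 members, or 5.59%, against 5.58% of all genes. The members' median log2 ratio was 0.18, and that of all these genes was -0.02. The middle 50% of members lay between -0.20 and 0.61, and that of protein-coding genes at the same limit between -0.35 and 0.26. Most members were shallow: among those under 1000 mean counts, 14.4% were 2-fold higher in replicate 2, and among all genes of 100 to 1000 counts 5.33% were. The share was 17.0% for lincRNAs, 16.2% for antisense genes and 11.6% for processed transcripts. Of the 7 marker lists, 6 had medians below 0 where the members' was above: -0.17 for erythroid, -0.21 for neutrophil, -0.11 for monocyte and macrophage, -0.12 for stroma and endothelium, -0.60 for T and NK cell and -1.24 for B cell genes. The megakaryocyte list was at 0.11, the value of Gp9, with Itga2b at 0.33, Pf4 at -1.62 and Ppbp at -3.69. Gp1ba of that list had 0 and 8 counts. The part of other cell types in the members' ratios was not tested.

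The 5 widest ratios upward were Gm26526 with 82 and 382 counts, at 3.11 (2.77 to 3.48), Snhg20 at 2.88, Gm15886 with 64 and 217, at 2.65 (2.25 to 3.08), Gm12238 at 2.30, and Gm29253 with 271 and 714, at 2.29 (2.09 to 2.50). Gm29253 has 1 transcript of 22 exons and overlaps Abcb6 and Atg9a on their own strand, and those genes were at 0.11 and -0.50. Downward the widest was Gm37724, a lincRNA of 1 exon, with 208 counts in replicate 1 and 7 in replicate 2, at -4.00 (-5.33 to -2.93). C430014B12Rik had 187 and 27 counts, at -1.90, Cep83os had 222 and 39, at -1.62, 2610507I01Rik had 263 and 52, at -1.45, and 4921531C22Rik had 193 and 39, at -1.41. These 10 were picked among members whose interval excluded 0. That held for 105 members, or 73.4%, against 70.2% of all 8203 genes at the limit. The intervals hold no spread between animals or preparations. The 10 members with most counts all had ratios above 0, as did 61.5% of all members and 48.6% of all 8203 genes. The intervals of 9 of the 10 excluded 0. Of the 10, Gm42418 alone was past 2-fold, at 1.76, followed by Gm27177 at 0.70 and F930017D23Rik at 0.54. The ratio was 0.35 for Malat1, 0.27 for Neat1, 0.25 for AI662270, 0.19 for both Gm26917 and B230354K17Rik, 0.10 for 1700020I14Rik and 0.01 for Gm42743.

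**Figure D4:**
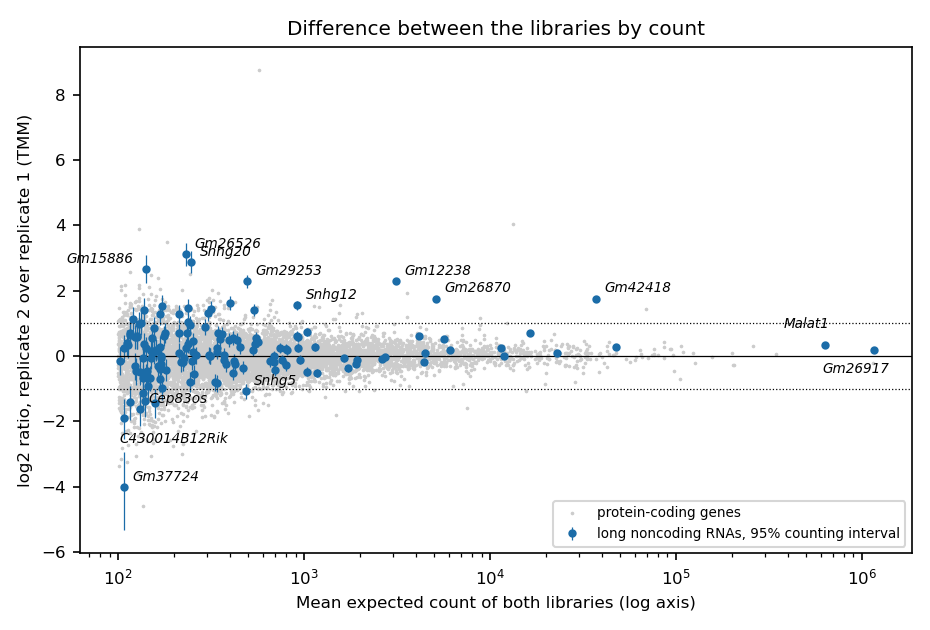
Log2 ratio of replicate 2 over replicate 1 (y axis, TMM-scaled expected counts) against the mean expected count of both libraries (x axis, log scale) for the 143 members, with 95% counting intervals as bars, over protein-coding genes in grey; dotted lines mark a 2-fold difference. The 20 members above the upper line and 8 below the lower one include Gm42418 and Gm26870 at 1.76 and Gm37724 at -4.00.

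Transcript shares were not used to choose the members. The deposited tables listed 414 transcripts for them, 63 members having 1 and 80 having more, up to 25 for Gas5. Among the 80, the leading transcript, the one with the highest mean share of the gene's TPM, held over 50% in both libraries in 42, or 52.5%. The same was so for 48.6% of 5782 protein-coding genes at the same count limit with several transcripts. In 49 of the 80 the same transcript led in both libraries and in 31 the leaders differed. The share with differing leaders was not computed for protein-coding genes, so this split cannot be read as particular to the members. The leading transcript had 1 exon in 42 members, 29.6% of those found in M21, against 2.13% of protein-coding genes at the limit. Neat1 was held by its 20771-base transcript, at 99.9% and 98.7%, and Lockd by a 441-base one, at 97.5% and 95.8%. AI662270 had 90.3% and 94.3% in a transcript of 1428 bases. In Malat1 the 6983-base transcript held 46.3% of TPM in replicate 1 and 59.6% in replicate 2, and a 556-base spliced transcript held 52.8% and 36.3%. By counts the long transcript of Malat1 held 707322 and 496618, since a share of TPM is per base of effective length. Gas5 was spread over many transcripts, and its leader, of 12 exons and 502 bases, held 10.6% and 28.9%. Dleu2, with 15 transcripts, was led by one of 4098 bases, at 31.7% and 26.8%, although one of 3544 bases held 36.6% in replicate 1. In 10 members, among them Zfas1 and Snhg5, the leader is annotated as a retained intron, a count with no share over other genes to set beside it. The leading share changed most in Etohd2, from 10.5% to 100.0% for a transcript of 3135 bases, on 112 and 162 counts. Foxd2os came next, with 14.6% and 100.0% on 125 and 106 counts. B930036N10Rik went from 100.0% to 29.4% for its 3544-base transcript, on 389 and 332 counts. These 3 genes were chosen after their values were seen.

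**Figure D5:**
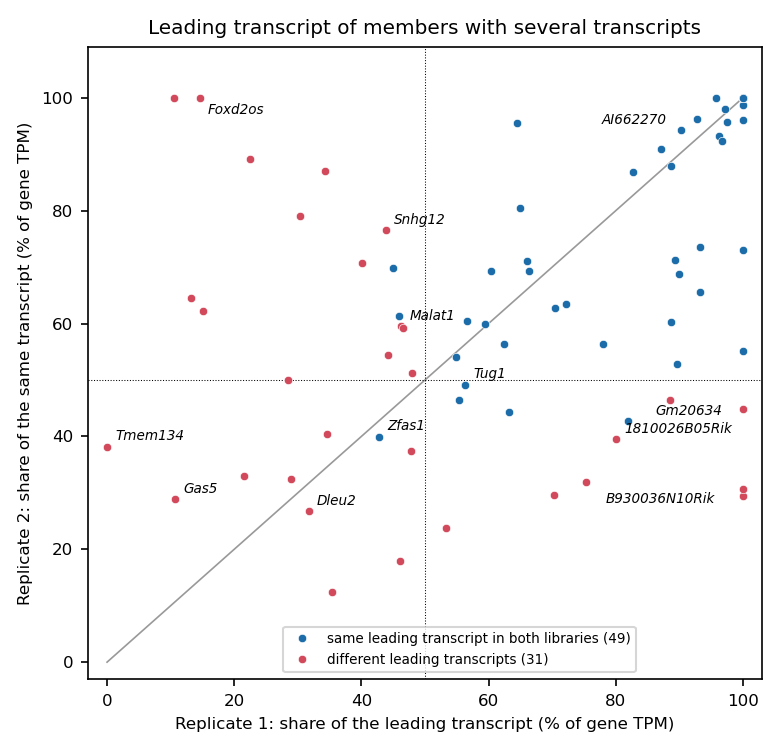
Share of the gene's TPM held by the leading transcript in replicate 1 (x axis, percent) and in replicate 2 (y axis, percent) for the 80 members with several listed transcripts; colour marks whether the same transcript led in both libraries, dotted lines mark 50%, and the diagonal equal shares. In the upper right, 42 members stand above 50% in both libraries.

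At the count limit the members just inside were 9530052C20Rik with 137 and 67 counts, Mirt1 with 131 and 83, and C430014B12Rik with 187 and 27. Just outside were Gm28512 with 88 and 108, C030034I22Rik with 153 and 38, and Gm2822 with 73 and 113. Levels of the 6 overlapped, with Mirt1 at 4.09 and 4.06 inside and Gm28512 at 10.1 and 22.8 outside, because the limit is on counts and not on counts per base.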

How the data were processed

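Gene and transcript tables of 2 libraries were used. The assembly is mm10 by the labels, and a text record that comes with each library gives the annotation as GENCODE M4. Aligner, quantification program and strand setting: not given in the sources used here. The columns, per the file headers, are the authors' expected counts, TPM, posterior SDs, effective lengths and, per transcript, the percent of gene TPM.

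Biotypes, symbols and positions came from GENCODE M21, which matched 98.0% of 43346 Ensembl genes, and from RefSeq (GRCm38.p6). TPM was rescaled to nuclear protein-coding genes. Counts were rounded and TMM factors computed with edgeR 4.0.16 (R 4.3.3) on 12757 genes with a mean of at least 10; DESeq2 1.42.0 size factors, other count limits and single libraries were alternatives. Ratios have exact Clopper-Pearson intervals (scipy). They were tried on simulated counts that held counting error only, so that check does not cover any other spread. PCR reads are not independent molecules, so intervals cover counting error only. The 1 group allowed no test between conditions.

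The members and the gene lists were chosen with earlier results of these data known. The rule for named genes was: the 10 highest by level and by counts, the fixed lists, the 5 widest ratios each way, neighbours of the limit, hosts of small RNAs, and the largest members beside coding genes; others are marked in the text.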

Additional observations from a re-analysis of the deposited data

How the results depend on the processing

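Of 61 alternative values, 42 stayed within the limits set and 19 moved. The limits were 1 SD of the libraries, 1.5 times for counts and 0.1 for the log2 median. A change of sign was possible only for the median log2 ratio, and none was seen. The 42 include values without members marked as sharing reads, which repeat the reported ones because no member was marked. No paired analysis was possible because there was 1 group. With the count minimum at 50 and at 200 the median level was 9.57 and 34.9, members with a leading transcript over 50% were 163 and 65, and those over a coding gene on the other strand 92 and 37. At 200, 91 genes remained members, of which 1 was 2-fold higher in replicate 1. With replicate 1 or 2 left out, 126 or 161 genes passed, the median level ranged from 12.4 to 26.8, and the share of long noncoding RNA counts from 99.2 to 99.5%. Deposited TPM gave a median of 1.51 and put 77 members at 1 or more in both libraries. With at least 2 transcripts required, 42 members had a leader over 50%. Library size alone put the members' median log2 ratio at 0.022, as it shifted all genes by -0.16; the members stood 0.20 above all genes under both. Without the member with most counts the top 5 held 87.4% of counts. Chosen after seeing the data, leaving out Gm26917 and Gm42418 gave 88.2%. It also left the other members with 40.8% of all long noncoding RNA counts, a total that still includes both genes. Depth limits members under 1000 counts, whose intervals are wide, and genes shorter than the fragments.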

Other observations

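On the X chromosome, which the choice of members leaves out, 5 genes of the same biotypes had a mean of at least 100 counts. F630028O10Rik, an antisense gene, had 4833 and 2373 counts in replicates 1 and 2 and levels of 112 and 107 coding-scaled TPM, which would place it among the 20 highest members. 5530601H04Rik had 963 and 654 counts, Gm21986 had 352 and 326, Ftx, an RNA of the X inactivation centre, had 280 and 91, and 2810403D21Rik had 199 and 104.

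Genes that M21 marks only as to be experimentally checked (biotype TEC) reached similar counts. Gm37527 on chromosome 6 had 18476 and 9732 counts and levels of 362 and 370, and Gm29438 had 14096 and 7163 and levels of 383 and 376. Gm20236 and Gm37094 on chromosome 14 were listed with the same values, 21305 and 12256 counts each. These genes were chosen after their values were seen.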
